A study of Mus musculus with 272 samples.

Results

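The transcripts described here are those of 10 heat shock protein chaperone genes, taken by name: Hspa1a, Hspa1b, Hspa8, Hspa9, Hspa4, Hsp90aa1, Hsp90ab1, Hspd1, Hspe1 and Dnaja1. All 10 were found among the 15854 gene symbols of the deposited table. The mouse stages were the germinal vesicle (GV) oocyte, the metaphase II (MII) oocyte, the zygote, the 2-cell embryo, the 4-cell embryo, the 8-cell embryo, the morula and the blastocyst. At each of these 8 stages there were 4 transcriptome libraries, each from a pool of 20 oocytes or embryos, and 3 sucrose gradients lettered A to C, each loaded with a lysate of about 100 oocytes or embryos and collected as 10 fractions. All lysates for gradients contained cycloheximide, which stalls ribosomes on the transcript, and the same buffer and Smart-seq amplification of polyadenylated RNA was used at every stage. Strain, age and genotype are not given in the sources used here, and the labels name no other treatment. Nothing says that the pools came from separate collections, so p-values measure the spread between these pools and gradients, which may be technical. Unless stated otherwise, that spread was estimated for each gene over all stages together, not from the compared stages alone.

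Chaperones bind unfolded or partly folded proteins and keep them from aggregating. Hsp70 proteins work in cycles of ATP hydrolysis that J-domain proteins such as Dnaja1 start and that nucleotide exchange factors such as Hspa4 end, and they pass many client proteins on to Hsp90. In the mitochondrial matrix, Hspa9 pulls imported proteins in, and Hspd1 and its lid Hspe1 form the chamber in which they fold. Hspa8, Hsp90ab1 and the mitochondrial members are made in unstressed cells, whereas Hspa1a and Hspa1b are the classical stress-inducible Hsp70 genes and are also known as early products of the embryonic genome at its activation in the mouse. The GV oocyte stores transcripts, its transcription stops in late growth, and the embryo's own transcription starts weakly in the zygote and strongly in the 2-cell embryo.

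For 6 members RefSeq (GRCm38.p6) gave a window of 250 bases before and 50 after a transcription start, and 3 stretches are shown because they hold the 2 pairs of neighbouring members. Heat shock factors bind repeats of the unit GAA and its reverse complement. Capitals mark such repeats, and the sequences are in transcript direction for Hspa1a and Hspa1b (chromosome 17, minus strand, chr17:34972157-34972406 and chr17:34959239-34959488) and on the plus strand for the 215 bases between the divergent starts of Hspd1 and Hspe1 (chr1:55087933-55088147).
Hspa1a: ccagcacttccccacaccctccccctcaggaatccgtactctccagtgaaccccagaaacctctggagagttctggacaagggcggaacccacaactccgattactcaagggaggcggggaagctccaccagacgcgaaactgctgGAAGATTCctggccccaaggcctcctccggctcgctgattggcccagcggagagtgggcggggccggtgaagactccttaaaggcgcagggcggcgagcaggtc
Hspa1b: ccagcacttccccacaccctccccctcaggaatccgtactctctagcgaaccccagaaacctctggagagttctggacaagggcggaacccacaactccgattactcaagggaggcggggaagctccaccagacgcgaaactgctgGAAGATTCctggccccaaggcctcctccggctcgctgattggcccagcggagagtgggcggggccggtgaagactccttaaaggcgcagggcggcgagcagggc
Hspd1-Hspe1: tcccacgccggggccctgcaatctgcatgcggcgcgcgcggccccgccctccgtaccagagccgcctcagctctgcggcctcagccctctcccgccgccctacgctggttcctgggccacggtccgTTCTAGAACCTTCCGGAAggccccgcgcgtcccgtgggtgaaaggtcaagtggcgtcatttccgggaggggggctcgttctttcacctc
The upstream stretches of Hspa1a and Hspa1b were 98.8% identical and differed at 3 of 250 bases. Both carry GAANNTTC, read on both strands, starting 104 bases upstream of the start. It occurred in 7.86% of the 32851 windows of this length in the RefSeq table, and in at least 1 window of Hspd1, Hspe1 and Dnaja1, but not in that of Hspa4. In the stretch shared by Hspd1 and Hspe1, the 18 bases in capitals begin 89 bases from the start of Hspe1 and 144 bases from that of Hspd1, upstream of both. They hold a longer form, GAANNTTC followed after any 2 bases by GAA or the same on the other strand, which was found in 0.603% of all windows. These matches describe the letters only, and no binding was measured. RefSeq also gave another start of Hspd1, outside the 215 bases shown.

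The likeness of the Hspa1a and Hspa1b genes goes on into their transcripts. Of all 150-base stretches of the Hspa1b transcript, 40.5% were identical to a stretch of Hspa1a, so reads of the pair can be exchanged between them. The share identical to some other annotated transcript was 55.4% for Hspa8 (mostly the pseudogene Gm15459), 36.2% for Hsp90aa1 (mostly Gm12346), 18.6% for Hspd1, 14.1% for Hspe1 and 11.6% for Dnaja1. It was 0 for Hspa4, Hspa9 and Hsp90ab1. How the authors counted reads with several matches is not given in the sources used here, so the levels of the former genes are uncertain to that extent.

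Values are CPM, read counts scaled to a common library total, not scaled for gene length. Transcriptome libraries held 11.2 to 24.3 M reads, and fraction libraries 0.0102 to 43.2 M with 15 of 240 under 1 M. The 240 include a library of 2-cell gradient B whose reads were not recovered, so its depth is uncertain. Amplified reads carry no molecular tags here, so read counts and intervals cover counting error only. Oocyte markers summed to 19637 ± 1201 CPM in GV oocytes and 9.47 ± 2.70 in blastocysts. The sum of 2-cell markers was highest in 2-cell embryos (2129 ± 347) and that of blastocyst markers in blastocysts (2524 ± 285, SD, n = 4 each). Not every listed gene followed its sum. Tdpoz4 averaged 31.8 CPM in 2-cell and 34.2 in 4-cell embryos, while Zscan4c, Zscan4d, Usp17la and Zfp352 peaked in 2-cell embryos. Sox17 averaged 0.780 CPM in blastocysts and 2.60 in 2-cell embryos, and Gata3 was at 107 in zygotes and 156 in blastocysts, while Krt8, Krt18, Cdx2, Nanog and Sox2 peaked in blastocysts. Of 8 granulosa and cumulus cell markers 3 were among the symbols used, and their sum was 38.4 to 69.0 CPM in the pools of GV, MII and zygote, nearly all from Cyp19a1, and at most 13.03 in later ones. Of 6 blood cell markers 3 were among the symbols used, and Hba-a1 reached 20.51 to 159 CPM in pools from the 2-cell stage to the morula while listed at 0 in GV, MII and zygote. The other 2 did not follow it. Hba-a2 was at most 0.274 CPM in any pool, and Cd68 had means of 4.12 CPM in GV oocytes, 1.72 in 8-cell embryos and 11.9 in blastocysts. The part of granulosa, cumulus or blood cells in the changes below was not tested. Because CPM is a share of the library, fewer transcripts per embryo and a larger total of other transcripts cannot be told apart. As polyadenylated RNA was amplified, a level is that of the polyadenylated transcript only, and a change of it need not be a loss or gain of the transcript.

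Across the 7 transitions the transcriptome was compared with limma's moderated test on log2(CPM + 1) over 14642 genes. A gene was called when its Benjamini-Hochberg adjusted p was under 0.05 and its change at least 1 on this scale, and all changes below are on it. Members were called in 4 transitions: 4 fell from GV to MII, 2 rose and 2 fell from zygote to 2-cell, 7 rose and 1 fell from 2-cell to 4-cell, and 3 rose from 8-cell to morula. Of all genes, 34.5%, 33.9%, 64.8% and 11.9% were called in either direction at these transitions. In the other 3 transitions limma called 0 members. Taking the 7 transitions together, 27.1% of the members' changes were called, beside 26.4% of those of all genes. Over the whole course, mean levels spanned 68.9-fold for Hspa8, 28.2-fold for Hsp90ab1 and 18.0-fold for Hsp90aa1, but only 2.42-fold for Hspa9.

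**Figure D1:**
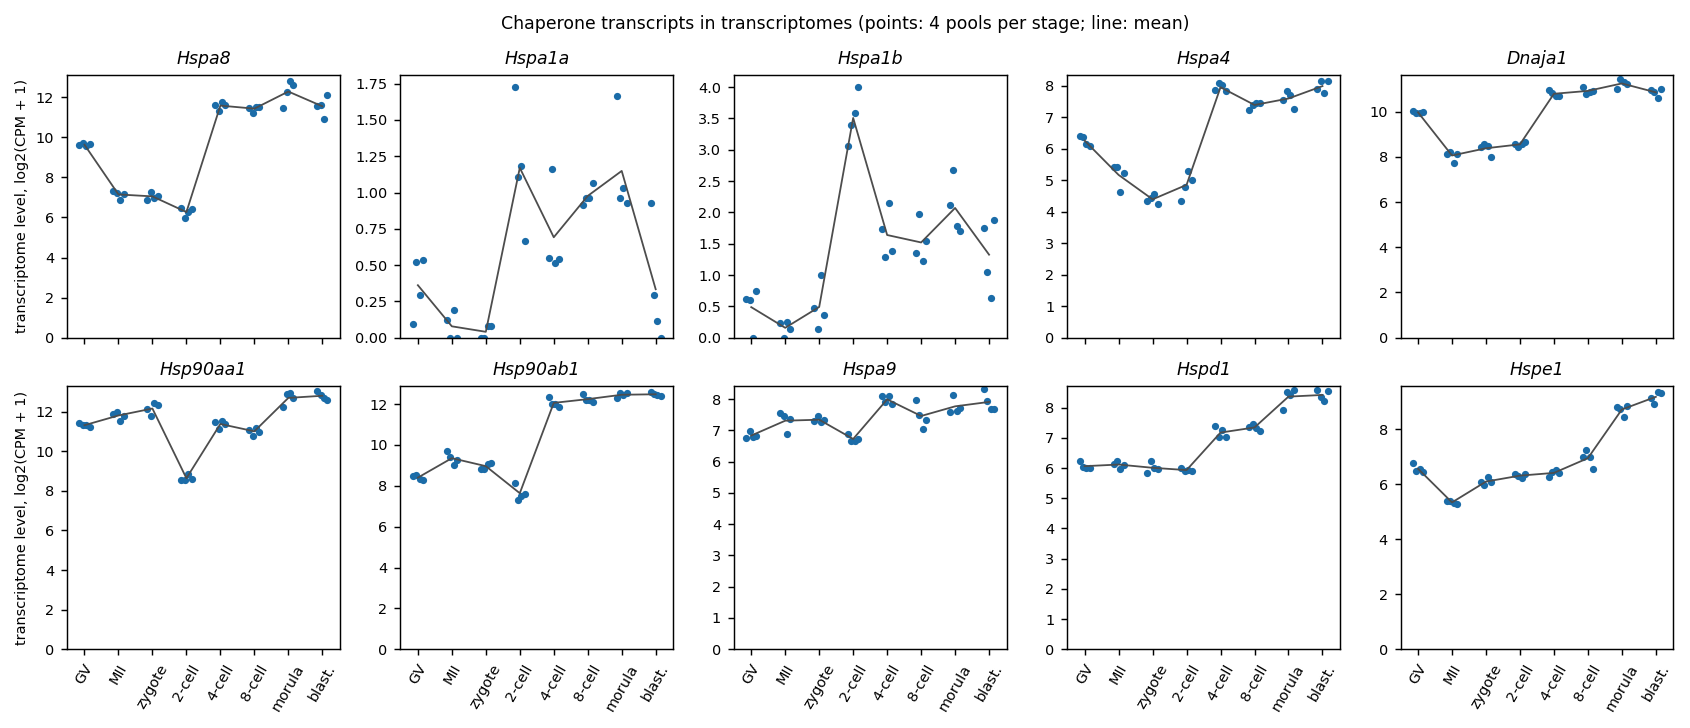
Level of each chaperone transcript in the transcriptome libraries on a log2(CPM + 1) axis, 1 panel a gene with its own axis, with points for the 4 pools of a stage and a line through the stage means. Hspa8, Hsp90ab1, Hspa4 and Dnaja1 lie on a high plateau from the 4-cell stage on, Hsp90aa1 has a trough at the 2-cell stage, and Hspa1b peaks there.

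Hspa8 encodes the constitutive cytosolic Hsp70. In the 4 GV pools it measured 776, 832, 768 and 802 CPM, and in MII oocytes 161, 151, 116 and 141 CPM. It fell by 2.48 (SE 0.19, limma adjusted p = 1.3e-13). Zygotes held 133 ± 14.97 CPM and 2-cell embryos 87.3, 61.7, 75.1 and 83.7 CPM (mean 76.9 ± 11.4), the lowest of all stages, with no overlap with zygotes and a change of -0.78 that limma did not call. edgeR on the reads recovered from the CPM steps did call this change, at -1.11 (adjusted p = 2.2e-05). The 4-cell pools then measured 3159, 2587, 3521 and 3132 CPM, 40.3-fold the 2-cell mean. On the log2(CPM + 1) scale this was the largest rise of any member (5.32, SE 0.19, limma adjusted p = 1.5e-23). From there to the blastocyst the ranges of neighbouring stages in the order of means overlapped, and the morula pools were spread from 2869 to 7133 CPM. Without morula pool A, the lowest, limma called a rise from 8-cell to morula of 1.12 and a fall to the blastocyst of -1.005, against 0.86 and -0.74 with it.

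Hspa1a and Hspa1b, the inducible Hsp70 genes, were scarce throughout. Hspa1b had 32 reads in the 4 zygote pools together and 572 in the 2-cell pools, a ratio of 25.3 (95% exact counting interval 17.7 to 37.4). Its 2-cell levels were 7.31, 9.50, 11 and 15.02 CPM, each above every pool of the other 7 stages, and the rise was called (3.02, SE 0.27, limma adjusted p = 5.2e-12). In 4-cell embryos it measured 2.32, 1.44, 3.43 and 1.62 CPM, a called fall by 1.87 (SE 0.27, limma adjusted p = 8.7e-08), and it stayed at 0.542 to 5.39 CPM afterwards. Hspa1a had 2 reads in all zygotes and 74 in 2-cell embryos, a ratio of 52.4 (interval 14 to 441), with 2-cell levels of 2.31, 1.15, 1.27 and 0.589 CPM. Its rise of 1.13 (SE 0.20, limma adjusted p = 1.3e-05) was not called without the 2-cell pool E (0.94), with a pseudocount of 5 (0.33) or with quantile normalization (0.58). Summed, which leaves out any exchange of reads within the pair, the 2 genes measured 0.0948 to 1.05 CPM in zygotes, 9.62 to 15.6 in 2-cell embryos and 2.08 to 3.86 in 4-cell embryos. Both had their highest mean at the stage where Hspa8 was lowest, although the 2-cell range of Hspa1a overlaps that of later stages.

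Hspa4, an Hsp110-type exchange factor for Hsp70, declined in steps. It measured 83.2, 81.6, 70.3 and 67.0 CPM in GV oocytes, 35.7 ± 8.54 in MII oocytes and 20.0 ± 1.95 in zygotes (SD, n = 4 each), and the pools of these stages did not overlap. The first step was called (-1.09, SE 0.17, limma adjusted p = 1.4e-06), but not with edgeR (-0.78), quantile normalization (-0.74) or without MII pool C (-0.91). At the 4-cell stage it measured 233, 271, 256 and 227 CPM, 8.60-fold the 2-cell mean of 28.7 ± 8.11 (3.10, SE 0.17, limma adjusted p = 3.4e-18). Dnaja1, a J-domain protein that hands clients to Hsp70, fell from 1002 ± 20.7 CPM in GV oocytes to 268 ± 38.4 in MII oocytes (-1.91, SE 0.12, limma adjusted p = 4.7e-16). It lay between 212 and 404 CPM in all pools from MII to 2-cell, and between 1563 and 2808 CPM in all pools from the 4-cell stage on. The 2-cell to 4-cell rise was 4.74-fold (2.24, SE 0.12, limma adjusted p = 1.6e-18).

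The pair of cytosolic Hsp90 genes, whose products mature signalling proteins and other clients, parted in the oocyte and the zygote. Hsp90aa1, the form commonly described as inducible, was the most abundant member per kilobase of exon at each stage up to the 2-cell embryo, at 648 CPM per kb in GV oocytes, 915 in MII oocytes and 1177 in zygotes, against 113, 221 and 167 for Hsp90ab1. Its zygote pools held 4421, 3486, 5526 and 5070.2 CPM, and its 2-cell pools 373, 379, 453 and 386 CPM. That 11.6-fold drop was the deepest of the 10 genes at any transition on the log2 scale (-3.52, SE 0.14, limma adjusted p = 5.5e-22). In 4-cell embryos Hsp90aa1 was back at 2832, 2237, 2906 and 2689.6 CPM, 6.70-fold the 2-cell mean (2.74, SE 0.14, limma adjusted p = 1.4e-19), a range that overlaps the GV pools. A second rise by 1.69 (SE 0.14, limma adjusted p = 6.8e-11) took it from 2060.4 ± 217 CPM in 8-cell embryos to 6725 ± 1373 in morulae.

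Hsp90ab1, the constitutive form, measured 458, 448, 537 and 559 CPM in zygotes and 285, 159, 178 and 192 in 2-cell embryos (-1.32, SE 0.14, limma adjusted p = 3.2e-10). Its 4-cell pools held 5225, 4176, 4049 and 3779.5 CPM, a rise of 21.2-fold (4.42, SE 0.14, limma adjusted p = 2.4e-25), and it was at 1436 CPM per kb against 678 for Hsp90aa1. No later change of Hsp90ab1 was called, and its means ran from 4307 CPM in 4-cell embryos to 5736 in blastocysts. In oocytes it rose by 0.95 from GV to MII (SE 0.14, limma adjusted p = 3.1e-07), just under the size needed for a call. This became a call with edgeR (1.28), without GV pool B (1.004) or without MII pool C (1.06).

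The 3 mitochondrial members differed among themselves, with means spanning 2.42-fold for Hspa9, 5.72-fold for Hspd1 and 14.7-fold for Hspe1. Hspa9, the matrix Hsp70, ranged from 105 ± 7.69 CPM in 2-cell embryos to 255 ± 24.1 in 4-cell embryos, a step of 2.42-fold between stages whose pools did not overlap (1.27, SE 0.16, limma adjusted p = 9.6e-09). Quantile normalization left 0.94. Hspd1, the large chaperonin, lay between 56.7 and 75.2 CPM in all 16 pools from GV to 2-cell, and rose at the 4-cell stage to 169, 131, 151 and 128 CPM (1.24, SE 0.13, limma adjusted p = 1.2e-10). Its further rise in morulae was 1.02 (SE 0.13, limma adjusted p = 3.2e-07) and was not called with edgeR (0.95), without 8-cell pool D (0.98), or without morula pool B (0.97) or D (0.95).

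Hspe1, the chaperonin's lid, followed Hspd1 only in part, although only the 215 bases printed above lie between its start and a start of Hspd1. It fell from 93.9 ± 10.0 CPM in GV to 39.5 ± 1.72 in MII oocytes (-1.22, SE 0.13, limma adjusted p = 4.7e-10; -0.93 with edgeR and -0.92 with quantile normalization, neither a call), where Hspd1 changed by 0.05. From MII to zygote Hspe1 rose by 0.76 (39.5 to 67.5 CPM, limma adjusted p = 2.7e-05), under the size needed for a call. The pools of these stages did not overlap. Over the same 2-cell to 4-cell step that raised 7 members, Hspe1 changed by 0.10 (78.5 ± 3.60 to 84.3 ± 6.75 CPM). Its main rise came in morulae, with 126, 149, 127 and 93.5 CPM in 8-cell embryos and 452, 429.7, 349 and 457 CPM in morulae (1.77, SE 0.13, limma adjusted p = 9.0e-12). Blastocysts, at 582 ± 79.7 CPM, had the highest level and did not overlap the morulae.

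**Figure D2:**
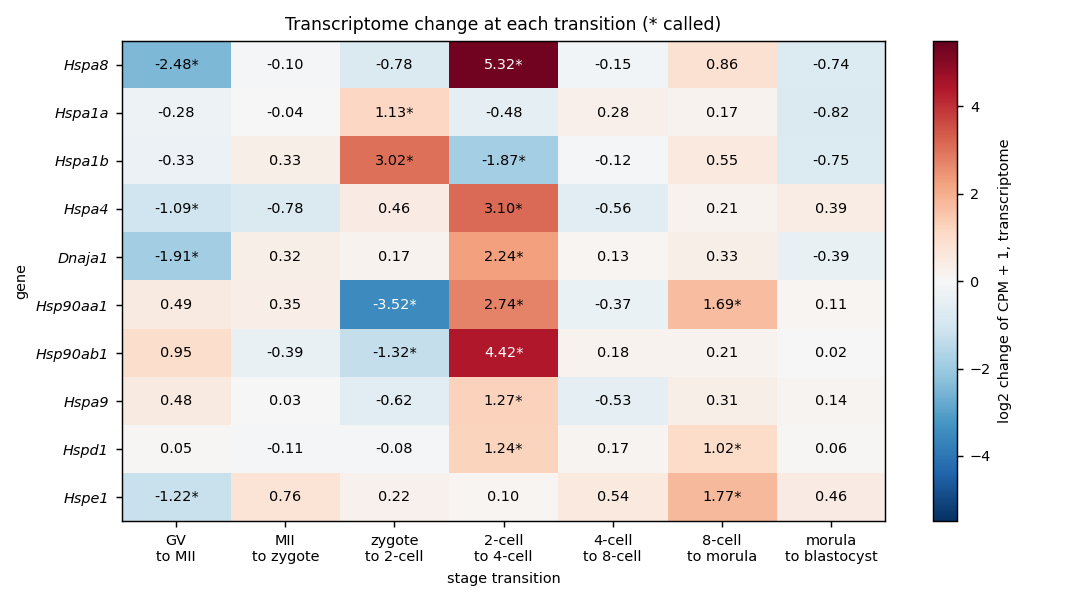
Change of each chaperone transcript (rows) at each stage transition (columns) in the transcriptome libraries, as log2 change of CPM + 1 from limma, red for higher and blue for lower in the later stage, with an asterisk where a change was called. The 2-cell to 4-cell column holds 8 of the 19 calls.

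Over the 7 transitions together 27.1% of the members' changes were called (19 of 70), beside 26.4% of those of all genes. From GV to MII limma called 25.3% of all genes lower, and 4 of 10 members. From zygote to 2-cell it called 25.2% higher and 8.71% lower, against 2 members each. From 2-cell to 4-cell it called 31.8% of genes higher and 32.9% lower, against 7 members and 1, and the median change of the members was 1.75 beside 0.02 for all genes tested. From 8-cell to morula 8.18% of genes and 3 members were called higher. The transitions without a member called had 10.3% of genes called in either direction from MII to zygote, 2.60% from 4-cell to 8-cell and 26.8% from morula to blastocyst. In those, 5, 4 and 6 members had an unadjusted p under 0.05. Of these, 4, 3 and 5 also had an adjusted p under 0.05, with a change under 1. edgeR called 0, 0 and 2 members, beside 2195, 577 and 4592 of all genes in either direction. The 2 were Hspa1a and Hspa8, lower in blastocysts, as were 2303 genes. limma also called this fall of Hspa1a without blastocyst pool A (-1.01, against -0.82) and with a pseudocount of 0.1 (-2.21), and with the latter it called a fall of Hspa1a from GV to MII (-1.29, against -0.28). Neighbouring transitions share a stage, so their calls are not independent. Quantile normalization, which gives every library the same spread of values, changed the split of all genes called. From GV to MII it gave 3234 higher and 2578 lower, against 1334 and 3711 on the deposited scale, and from zygote to 2-cell 2189 and 2529 against 3684 and 1275. From 4-cell to 8-cell it gave 134 and 135 against 66 and 314, from 8-cell to morula 805 and 742 against 1198 and 542, and from morula to blastocyst 1785 and 1731 against 2750 and 1167. No member's change turned its sign and became or stayed a call under any alternative.

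Genes whose stage means of log2(CPM + 1) were most like those of a member were sought among 13167 genes with a mean of at least 1 CPM and a range of stage means of at least 1. Over 8 stages, Pearson's r was 0.998 between Dnaja1 and Znhit1, 0.998 between Hsp90ab1 and Rack1, 0.996 between Hspa8 and Rabggta, 0.996 between Hspd1 and Hsd17b1, and 0.993 between Hspa4 and E4f1. These shapes were common, with 267 to 486 genes above 0.95 for each of these 5 members. Hsp90aa1 had 0 such genes, and its nearest was Cul4a at 0.937. Hspa9 had 5 (nearest Hars, 0.965), Hspa1a 2 (Hsh2d, 0.969), Hspa1b 16 (Lysmd3, 0.987) and Hspe1 51 (Stx4a, 0.985). The points share libraries and depth, and these values are descriptions.

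The gradients asked where each transcript sedimented. Fractions are only numbered in the labels. Here 6 to 10 are called heavy, since transcripts carrying several ribosomes usually sediment far, and 1 to 5 light. CPM was averaged over the 5 fractions of a side in each gradient, and heavy was compared with light on log2(mean CPM + 1) with limma over 15172 genes. This comparison took the 2 sides as separate groups, although both come from the same gradient. Its SE is therefore not the spread of the differences listed per gradient. A fit with the gradient as a replicate block was run as an alternative. Every fraction was scaled to its own total, so the values give a transcript's share of the RNA in a fraction and not its amount. The 10 members gave 8 calls in 80 comparisons, 7 of them on the heavy side. That is 10% of the members' comparisons, beside 7.29% over all genes and stages, both in either direction. The heavy calls of members fell in MII oocytes, zygotes, 2-cell embryos and morulae. There 1.71%, 2.14%, 6.43% and 1.64% of all genes were called heavy, and 1.52%, 0.870%, 11.8% and 4.17% light.

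**Figure D3:**
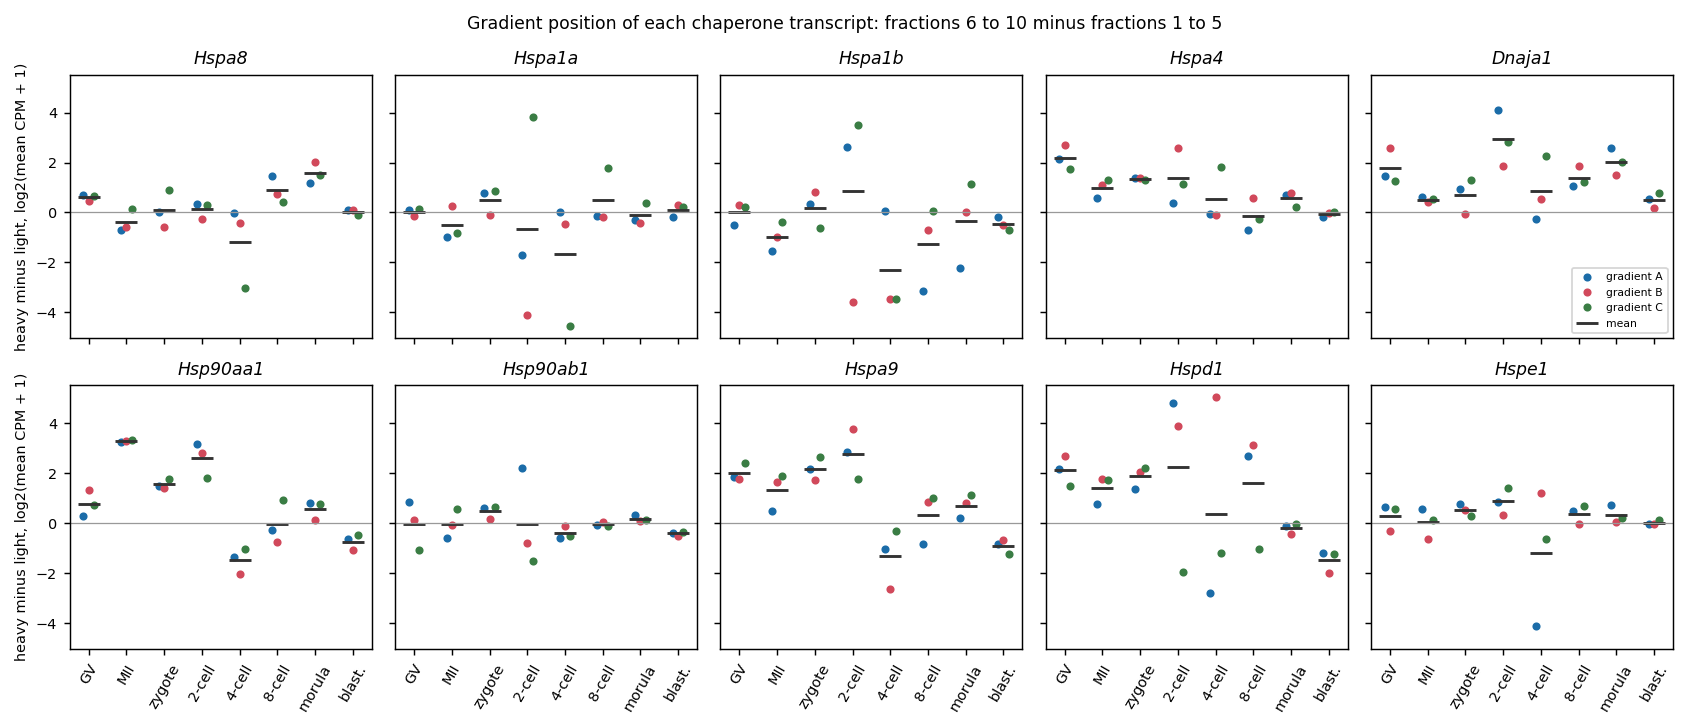
Heavy minus light difference of each chaperone transcript on the log2(mean CPM + 1) scale at each stage, with 1 coloured point per gradient, a bar at the mean of 3 gradients and a line at 0. The 3 points of Hsp90aa1 in MII oocytes nearly coincide at 3.31, and the spread is widest at the 2-cell and 4-cell stages.

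Hsp90aa1 in MII oocytes had the clearest position of any member. Its heavy means were 3271, 1682 and 2016 CPM in gradients A, B and C, and its light means 338, 168 and 199 CPM. The difference was 3.27, 3.31 and 3.34 in the 3 gradients, a mean of 3.31 (SE 0.48, limma adjusted p = 1.8e-05), and it was called under each of the 15 alternatives run (adjusted p 7.5e-07 to 0.012). Fractions 6 to 10 held 90.9 ± 0.206% of its CPM summed over fractions (SD, n = 3), against 62.9 ± 8.38% in GV oocytes and 74.6 ± 2.35% in zygotes. The mean level was 78.6 CPM in fraction 2, 435 in fraction 5, 1413 in fraction 6 and 2364 to 3072 in fractions 8 to 10. No other member was called in MII oocytes, where limma called 1.71% of all genes heavy. Fitted on the MII gradients alone, Hspa9 was called heavy too (1.35, adjusted p = 0.046, against 0.29). Hsp90ab1, its paralog, had a difference of -0.02 there (adjusted p = 1.0), with heavy means of 56.5, 44.04 and 55.6 CPM and light means of 84.5, 46.0 and 37.1.

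**Figure D4:**
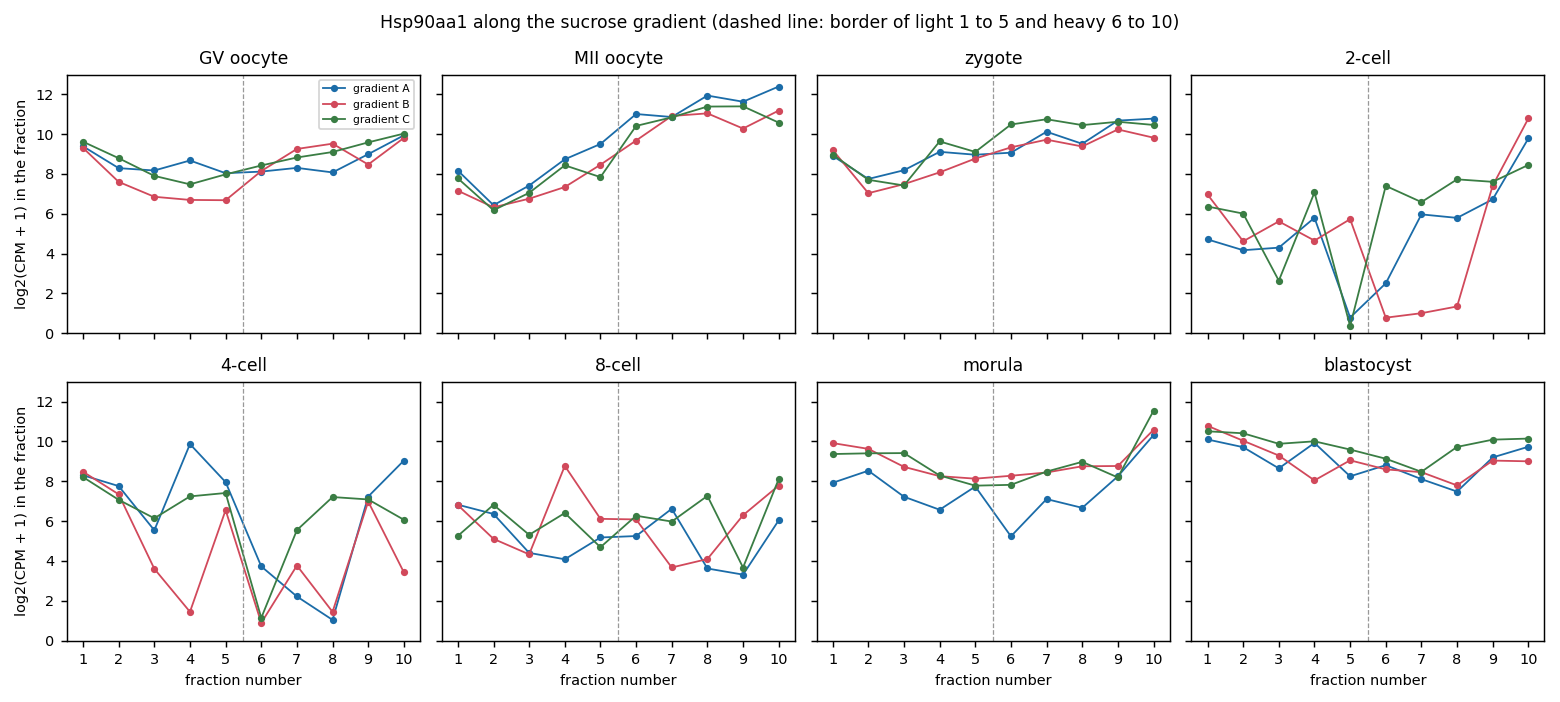
Hsp90aa1 in each of the 10 gradient fractions at the 8 stages, as log2(CPM + 1), with 1 line per gradient and a dashed line at the border of light and heavy fractions. In MII oocytes all 3 lines climb from fraction 2 into the heavy fractions, whereas the 4-cell lines drop to at most 12.2 CPM in fraction 6.

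In GV oocytes limma called 0 members and 0.0725% of all genes in either direction. The heavy side was nevertheless above the light side in all 3 gradients for Hspa4 (2.2), Hspd1 (2.12), Hspa9 (2.01) and Dnaja1 (1.77), with groups that did not overlap and unadjusted p under 0.05 for these 4. edgeR called 0 members and 8 of all genes. With the mean of log2 values limma called Hspd1 (2.24, adjusted p = 0.034). Hspa4 for example had heavy means of 112, 108 and 146 CPM and light means of 24.9, 15.8 and 42.6 CPM. Hspa8 (0.61) and Hspe1 (0.31) lay nearer to even.

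In zygotes Hspa9 was called heavy, with 186, 132 and 246 CPM against 40.7, 38.8 and 38.0 CPM (2.19, SE 0.60, limma adjusted p = 0.031), beside 2.14% of all genes. This call was lost under 6 of 15 alternatives, among them leaving out any 1 of the 3 gradients (adjusted p 0.11 to 0.36) and edgeR (0.10). Hsp90aa1, with heavy means of 1154, 852 and 1506 CPM and light means of 407, 321 and 444, had a similar course (1.56, SE 0.48, limma adjusted p = 0.069). With the gradient as a replicate block it was called (adjusted p = 0.0044), as it was with a pseudocount of 5 (0.039), quantile normalization (0.033), the zygote gradients alone (0.023) and heavy fractions 7 to 10 against light 1 to 4 (0.032). Fitted on the zygote gradients alone, Hspa4 (1.35, adjusted p = 0.026) and Hspd1 (1.89, 0.020) were called heavy, and Hspd1 also with the mean of log2 values (2.01, 0.025).

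In 2-cell embryos 3 members and 6.43% of genes were called heavy. Dnaja1 had heavy means of 147, 164 and 168 CPM and light means of 7.60, 44.2 and 23.3 (2.93, SE 0.50, limma adjusted p = 5.4e-05). Hspa9 had 198, 271 and 141 against 26.3, 19.1 and 41.0 CPM (2.79, SE 0.60, adjusted p = 7.8e-04), and Hsp90aa1 221, 387 and 203 against 23.3, 54.4 and 56.7 CPM (2.61, SE 0.48, adjusted p = 1.4e-04, both limma). For all 3 genes no heavy mean overlapped a light mean. Much of each heavy mean came from 1 or a few fractions: Hsp90aa1 averaged 997 CPM in fraction 10 and 52.6 to 156 in fractions 6 to 9, and Hspa9 had 1315 CPM in fraction 10 of gradient B and at most 0.404 CPM in fractions 6 to 8 of it. With the mean of log2 values per side, which gives a single high fraction less weight, Hspa9 was at 0.82 (adjusted p = 0.50) and Hsp90aa1 at 1.34 (0.13), neither called, and Dnaja1 kept its call. Fitted on the 2-cell gradients alone, none of the 3 was called (adjusted p 0.072 to 0.11). Hspa4 (1.38) was called only with the replicate block (adjusted p = 0.042). At this stage edgeR called 3 members heavy, beside 1020 of 15172 genes heavy and 1607 light. Under quantile normalization limma called 1357 genes heavy and 1399 light, against 975 and 1783 on the deposited scale.

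The 2-cell and 4-cell gradients were the most variable for these genes. Over the 8 members other than Hspa1a and Hspa1b, 27.1% of the 240 fraction values at the 2-cell stage and 25% at the 4-cell stage were under 1 CPM, against 0.417% in MII oocytes and 0% in blastocysts. The median SD of the heavy minus light difference over 3 gradients was 1.06 and 1.23 at those stages and 0.199 to 0.594 at the other 6. Hspd1 shows it: its 2-cell difference was 4.83, 3.89 and -1.93, and its 4-cell difference -2.79, 5.04 and -1.19. Since limma's SE of a gene came from all stages together, it was no larger at these 2 stages (0.997 for Hspd1 at each). The p-values there thus rest partly on the smaller spread of other stages. Hspa1a and Hspa1b differed even more between gradients. In 2-cell embryos Hspa1a was at 0 in 21 of 30 fraction libraries, with 107 CPM in fraction 9 of gradient C, 59.3 in fraction 5 of gradient B and 15.1 in fraction 1 of gradient A, so its position cannot be read there. Single gradients decided several further calls. At the 2-cell stage limma called Hspd1 heavy without gradient C (4.36), Hspa1b heavy without B (3.06) and Hspa1a light without C (-2.90), and at the 4-cell stage Hspa8 (-1.73) and Hspa1b (-3.46) light without A and Hspe1 light without B (-2.36). With all gradients and the settings described above none of these 6 was called. Other settings with all gradients called Hspa1b light at the 4-cell stage (a pseudocount of 5, adjusted p = 0.046, heavy fractions 7 to 10 against light 1 to 4, 0.045, and edgeR, 0.029), Hspa8 light there (the mean of log2 values, 0.024) and Hspd1 heavy at the 2-cell stage (quantile normalization, 0.039). They also called Hspa8 heavy at the 2-cell stage (fractions 7 to 10 against 1 to 4, 2.28), Hsp90ab1 light there (the mean of log2 values, -1.43) and Dnaja1 heavy at the 4-cell stage (light fractions 2 to 5, 1.78, and without libraries under 1 M reads, 1.83).

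At the 4-cell stage Hsp90aa1 turned to the light side, with heavy means of 138, 30.0 and 78.8 CPM and light means of 351, 124 and 163 (-1.46, SE 0.48, limma adjusted p = 0.031), beside 12.9% of all genes called light. In each gradient the light side was higher, but the groups overlapped. The call was lost under 6 of 15 alternatives, among them the fit of the 4-cell gradients alone (adjusted p = 0.59) and that without gradient B (0.13). It was also lost without libraries under 1 M reads (0.27) and with edgeR (0.39). edgeR called 1 member heavy (Dnaja1, 1.85) and 1 light (Hspa1b, -8.14) at this stage, beside 1046 genes heavy and 1320 light. Quantile normalization changed limma's calls over all genes from 516 heavy and 1952 light to 927 and 954. In 8-cell embryos 0 members were called by limma or edgeR, and 1 had an unadjusted p under 0.05 (Dnaja1, 1.38). There limma called 9.05% of genes in either direction, and edgeR called 650 genes. In morulae Dnaja1, with 578, 630.4 and 734 CPM against 96.6, 221 and 182 CPM (2.03, SE 0.50, limma adjusted p = 0.0076), and Hspa8, with 1061, 1195 and 1431 against 464, 289.9 and 510.3 CPM (1.57, SE 0.46, limma adjusted p = 0.032), were called heavy, as were 1.64% of genes. The Hspa8 call was lost under 9 of 15 alternatives, among them leaving out any 1 gradient, and that of Dnaja1 under 3 (without gradient A, 0.16, without gradient C, 0.063, and edgeR, 0.064). Both peaked in fraction 10, Hspa8 at 3696 and Dnaja1 at 1851 CPM.

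In blastocysts the members lay close to even or to the light side, apart from Dnaja1 (0.50), and limma and edgeR called 0 of them, with 0 at an unadjusted p under 0.05. Of all genes limma called 2.74% in either direction, and edgeR called 77. Hspd1 had heavy means of 18.2, 14 and 28.7 CPM and light means of 42.6, 59.1 and 67.6, a difference of -1.46 (adjusted p = 0.77), without overlap. Fitted on the blastocyst gradients alone, Hspd1 was called light (adjusted p = 0.042). Blastocyst gradients had the smallest spread of these differences, and Hspe1 (0.03), Hspa8 (0.03) and Hspa4 (-0.06) had nearly equal sides.

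Changes of position between stages were tested on each gradient's own heavy minus light difference (24 gradients, limma). From GV to MII Hsp90aa1 moved towards heavy by 2.53 (SE 0.43, limma adjusted p = 0.0075), and 0.145% of genes were called in that direction. GV gradients A, B and C had differences of 0.28, 1.33 and 0.73, all below those of MII oocytes. The shift was not called with the GV and MII gradients alone (adjusted p = 0.052), with light fractions 2 to 5 (0.12), with the mean of log2 values (0.14) or without GV gradient A (0.076). The transcript itself changed by 0.49 over this step, which was not a call. Dnaja1 (-1.26), Hspa4 (-1.21) and Hspa8 (-0.98) had the largest changes in the other direction, none with an adjusted p under 0.05.

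From zygote to 2-cell Dnaja1 moved towards heavy by 2.21 (SE 0.63, limma adjusted p = 0.043), beside 2.08% of genes. Without 2-cell gradient C, Hspa1a was called towards light (-3.41). The Dnaja1 call was lost under 9 of 17 alternatives, including the replicate block (adjusted p = 0.054) and leaving out zygote gradient A, B or C or 2-cell gradient A or C (0.057 to 0.18). From 2-cell to 4-cell 3 members moved towards light, as did 8.65% of genes: Hspa9 by -4.12 (SE 0.67, limma adjusted p = 4.4e-04), Hsp90aa1 by -4.07 (SE 0.43, adjusted p = 2.1e-05) and Dnaja1 by -2.08 (SE 0.63, adjusted p = 0.031). All 10 members had a negative estimate here, with a median of -1.98 beside -0.12 for all genes. These are the same 2-cell gradients that gave the heavy calls above. Fitted on the 2-cell and 4-cell gradients alone, Hspa9 (adjusted p = 0.25), Hsp90aa1 (0.20) and Dnaja1 (0.50) were not called. Dnaja1 was lost under 6 of 17 alternatives, among them without 2-cell gradient A or 4-cell gradient A or B (0.068 to 0.13). Conversely, limma called Hspe1 (-3.23) and Hspd1 (-4.25) without 4-cell gradient B, Hspa8 (-1.85) and Hspa1b (-4.30) without 4-cell gradient A, and Hspa1b (-5.34) without 2-cell gradient B. Hspa8 was also called with heavy fractions 7 to 10 against light 1 to 4 (-2.84). Quantile normalization gave 989 genes towards heavy and 977 towards light here, against 824 and 1313, and 410 and 282 against 316 and 500 from zygote to 2-cell. The transcriptome rose over this step for all 3 genes.

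The remaining 4 shifts had 0 members called by limma. From MII to zygote Hsp90aa1 changed by -1.75 (adjusted p = 0.35) and was the 1 member with an unadjusted p under 0.05, with 0.0198% of genes called in either direction. From 4-cell to 8-cell 3 members had such a p (Hspa8, Hspa9 and Hsp90aa1), with 3.18% of genes called, and 388 of those genes moved towards heavy and 95 towards light (208 and 194 under quantile normalization). Hspa8 (2.05) was called without 4-cell gradient A (2.62) or B (2.42), with light fractions 2 to 5 (2.60) and with the mean of log2 values (3.26), Hspe1 (1.55) without 4-cell gradient B (2.74), and Hsp90aa1 (1.44) without 4-cell gradient C (1.65) or 8-cell gradient B (1.81). From 8-cell to morula it was 0 members and 0.540% of genes, and from morula to blastocyst 4 members (Hspa8, Hspa9, Hsp90aa1 and Dnaja1, -1.30 to -1.61) and 0.0132% of genes. These tests were not run with edgeR.

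The rest of the chaperone network was followed through 124 other genes in 7 lists, of which 113 were tested. From GV to MII 8 were called higher and 39 lower, which is 7.08% and 34.5%, beside 9.11% and 25.3% of all genes. Among 23 Hsp90 co-chaperones and other Hsp90 genes 12 were lower and 1 higher, among them Pih1d1 (-4.27) and Nudc (540 ± 23.3 to 53.7 ± 11.7 CPM, -3.33), with a list median of -1.24 beside -0.11 for all genes. Of 41 other J-domain genes 15 were lower and 1 higher, among them Dnajb1, the main partner of stress-induced Hsp70 (195 ± 13.3 to 29.98 ± 4.66 CPM, -2.67). Of 16 other Hsp70 and exchange factor genes 4 were lower and 1 higher. Lower calls thus made up 25% of them, near the share of all genes, and included Sil1 (-3.11) and Grpel1, the mitochondrial exchange factor (-3.06).

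From zygote to 2-cell 35 of the 113 were called higher (31.0%) and 11 lower (9.73%), near the shares of all genes (25.2% and 8.71%). Of 16 Hsp70 and exchange factor genes 9 were higher and 0 lower, among them Bag3, a heat-shock-induced exchange factor (listed at 0 in the 4 zygote pools and at 8.89 ± 1.53 CPM in 2-cell embryos), Bag1 (3.20) and Hspa2 (3.03). Of the J-domain genes 13 were higher (31.7%) and 5 lower (12.2%), among them Dnajb9 (10.3 ± 0.481 to 505 ± 49.8 CPM, 5.49). From 2-cell to 4-cell 51 were higher (45.1%) and 21 lower (18.6%), beside 31.8% and 32.9% of all genes. Of 13 mitochondrial import and protein quality genes 10 were higher and 1 lower, with Tomm70a (4.70), Pmpcb (4.07) and the import receptor Tomm20 (97.2 ± 9.04 to 1569 ± 165 CPM, 4.00) in front, and a list median of 2.37 beside 0.02. Of the heat shock factor genes and regulators 5 of 7 were tested, and 3 were lower and 1 higher: Hsf2bp (-5.33) and Hsf5 (-4.57) were the largest falls and Hsf2 rose (2.72 ± 1.13 to 26.8 ± 10.7 CPM, 2.89). Dnajb4 dropped from 700.1 ± 150 to 1.27 ± 0.501 CPM (-8.27), while its relative Dnaja1 rose.

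From 8-cell to morula 11 of the 113 were higher (9.73%) and 3 lower (2.65%), near the 8.18% and 3.70% of all genes, among them Hsph1, an Hsp110 relative of Hspa4 (77.9 ± 9.56 to 224 ± 23.9 CPM, 1.52), which rose where Hspa4 changed by 0.21. From morula to blastocyst, where limma called no member, 29 were higher (25.7%) and 9 lower (7.96%), beside 18.8% and 7.97% of all genes. Of 9 ER chaperone genes 6 were higher and 0 lower, with a list median of 1.58 beside 0.16 for all genes, led by Calr (53.4 ± 13.3 to 460.0 ± 113 CPM, 3.08), Pdia6 (2.56) and Hspa5, the Hsp70 of the ER (2.35). Of 6 small heat shock protein genes tested 5 were higher, led by Hspb8 (3.48). In gradients the share of the listed genes that was called was 0 of 113 in GV oocytes beside 0.0725%, 0.885% in MII oocytes (Timm23, heavy, 1.34) beside 3.23%, and 20.4% at the 2-cell stage (14 heavy and 9 light) beside 18.2%.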

How the data were processed

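The deposited table holds CPM (read counts scaled to a common library total) for 15854 gene symbols in 272 libraries, made by the authors with Trim Galore 0.6.7, FastQC, HISAT2 2.2.1, featureCounts 2.0.1 and edgeR on GRCm39, per the submitters' processing notes. In 18 columns the values as deposited by the authors are recorded as signal, since repeated symbols raise the column sum beyond what CPM allows. Here they entered like the other columns. The 159 symbols in 76 groups of identical rows were cut to 1 row each, leaving 15771. The 2-cell transcriptome columns carry the letters E to H and the labels A to D, so these 4 were used as a group without pairing.

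In the libraries whose reads could be recovered, CPM steps gave whole reads for 100% of values (tolerance 0.05 reads), and depth was read from them. A fraction library of 2-cell gradient B was not recovered and is not part of that percentage, and edgeR ran without it. Transcriptome libraries held 11.2 to 24.3 M reads (median 17.6) and fractions 0.0102 to 43.2 M (median 18.6). The range and median of fractions include the library that was not recovered, whose depth is uncertain. No pair of replicates (288 pairs) agreed within sampling noise (chi-square per degree of freedom at least 2.55).

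limma 3.58.1 (R 4.3.3) with a trended prior was run on log2(CPM + 1) for genes with at least 1 CPM in 4 transcriptomes (14642 genes) or 3 gradient sides (15172 genes), with Benjamini-Hochberg adjustment over all genes, all stages in 1 fit and no block. Each fit was tested on simulated data. Alternatives were pseudocounts of 0.1 and 5, no filter, quantile normalization, fits of only the groups compared, no minimum change, other fraction limits, the mean of log2 values, edgeR 4.0.16 on recovered reads, a replicate block, and leaving out each replicate. Leaving out fraction libraries under 1 M reads was added after seeing the data. Heavy and light means of a letter come from the same gradient, and their deviations correlated by 0.00776 to 0.253 (24 pairs, median 0.0973), against a median of -0.0547 between letters. Named genes are the 10 members, at most the 3 largest called changes per list and transition, and the 3 most alike patterns per member. The result for 1 listed gene is not reported here. Members and lists were chosen with earlier results of these data known. Promoters come from RefSeq (GRCm38.p6), and no other coordinates are given because the files' build is GRCm39.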

Additional observations from a re-analysis of the deposited data

Results flagged for a closer look

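In 4 of 80 groups of 4 transcriptome pools, 1 pool lay far from the other 3 by Dixon's criterion, which chance gives in about 1 in 20 groups. Hspa1a had 1.23 CPM in 1 of the 4-cell pools against 0.429 to 0.464 in the others, and 2.18 CPM in 1 morula pool against 0.906 to 1.05. Hspa8 had 2418 CPM in 1 of the 8-cell pools against 2872 to 2932. Hsp90aa1 had 453 CPM in 1 of the 2-cell pools against 373 to 386.

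The position along the gradient differed between neighbouring stages, by limma's test of the difference itself, in 5 cases. Hsp90aa1 differed by 2.53 between GV and MII oocytes, and Dnaja1 by 2.21 between zygote and 2-cell embryo. Between the 2-cell and the 4-cell embryo Hspa9 differed by -4.12, Hsp90aa1 by -4.07 and Dnaja1 by -2.08, where 14.1% of all genes were called in either direction. The 5 cases are 7.14% of the members' tests, beside 3.37% over all genes, and 0 of them were kept under every alternative run.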

How the results depend on the processing

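Of 19 calls of members in the transcriptome, 14 were kept under each alternative run, of 8 calls of position 1 (Hsp90aa1 in MII oocytes), and of 5 calls of a shift 0. No member's value that was called changed its sign. Without the minimum change, member calls in the transcriptome were 40 and calls over all genes 46281 against 27030. A pseudocount of 5 gave 16837 over all genes. Leaving out 1 pool gave 18 to 21 member calls. When a fit held no other stages than those compared, calls of position over all genes were 5745 against 8854, member calls of a shift 0 against 5, and shifts over all genes 20 against 3577. With the mean of log2 values 3 member shifts were called. Leaving out 1 gradient gave 6 to 10 member calls of position and 3 to 8 of a shift (3 without 2-cell gradient A, 8 without 4-cell gradient B). In such fits a side or stage keeps 2 gradients. The causes were not tested.

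With the gradient as a replicate block, member calls of position were 10 against 8 and 10015 over all genes, and member calls of a shift 4 against 5 and 3321 over all genes. The calls that changed were Hsp90aa1 in zygotes, Hspa4 in 2-cell embryos and the shift of Dnaja1 into the 2-cell embryo, and no other call of a member did. For shifts and transcriptomes the letters share only a letter (median correlation of same-letter deviations 0.00922 and 0.0160). A replicate block in the 5 transitions between transcriptomes whose columns carry the labels' letters left 7 member calls.

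Quantile normalization moved the median change of all transcriptome genes by 0.27 from GV to MII, -0.45 at the step into the 2-cell, 0.20 at that into the 4-cell, 0.11 at that into the 8-cell embryo and -0.16 at that into the blastocyst. It moved the median position by 0.21 at the 2-cell and 0.30 at the 4-cell stage, and the median shift by 0.13 for MII against GV oocytes and by 0.22, 0.14 and -0.24 at the steps into the 2-cell, 4-cell and 8-cell embryo. Depth limits the fractions with few reads, and at 1 CPM a library under 1 M reads holds less than 1 read.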

Other observations

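The lists of other chaperone genes also had members with a called position, given here as values. In zygotes Hsf2bp (3.77) and Dnajb4, a J-domain partner of Hsp70 (24.3 ± 4.35 and 203 ± 68.5 CPM, 2.97), were heavy (SD, n = 3). At the 2-cell stage the small heat shock protein gene Hspb1 was heavy in gradients that varied little on that side (36.4 ± 11.6 and 189 ± 6.38 CPM, 2.39). In blastocysts, where no member was called, the co-chaperone genes Fkbp4 (578.5 ± 82.9 and 2259 ± 278 CPM, 1.97), Ruvbl2 (1.78) and Stub1 (1.66) were heavy and Dnajb14 was light (-2.91).

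The level of several members in the fractions was far below that in the transcriptome of the same stage, a comparison chosen after the data were seen. At the 4-cell stage Dnaja1 averaged 55.7 CPM over 30 fraction libraries and 1776 CPM over the transcriptomes, Hsp90ab1 205 and 4307, and Hspa8 239 and 3099.6. At the 8-cell stage Hsp90aa1 averaged 80.4 and 2060.4 CPM. For each of these 4 values, 0 of 30 fraction libraries reached the lowest transcriptome pool. Over the 1913 genes with at least 100 CPM in 4-cell transcriptomes, the median of log2 fraction minus transcriptome was -1.46, and it ran from -1.69 in zygotes to -0.43 in blastocysts. Hspe1 in MII oocytes went the other way, with 109 CPM in fractions and 39.5 in transcriptomes, and 30 of 30 fraction libraries were above the lowest pool. The libraries differ in preparation and in number of oocytes or embryos, and the part of either was not tested.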
